A study of Mus musculus with 20 samples.

Results

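The genes described here are 8 genes of retinoid uptake and signalling: Rbp4, Stra6, Aldh1a2, Crabp1, Crabp2, Rara, Rarb and Rarg. They were picked by symbol, with earlier results of these data known, and the difference in Stra6 between day 0 and day 3 of the control arm was one of those results. All 8 were found by name among the 15757 genes of the table, and 8 of 8 passed the filter on low values, which removed 0 genes. The course of the control arm is therefore given below as a description without a test.

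RNA was sequenced from mouse embryonic fibroblasts of the OG2 line, whose cells glow green when the Oct4 reporter they carry is active, taken at passage 2 and infected with retroviruses for Oct4, Sox2, Klf4 and Myc. Every group carried these 4 factors and was kept in iCD1, a medium made for reprogramming to induced pluripotent cells. The control arm also received an shRNA against luciferase, a gene that mouse cells lack, and the knockdown arm an shRNA against Ddx10, an RNA helicase of ribosome assembly. Each arm was sampled at days 0, 1, 3, 5 and 7 with 2 libraries per day, which gave 10 groups and 20 libraries. The labels name 1 shRNA against Ddx10 and no rescue, so loss of Ddx10 and other effects of that shRNA cannot be told apart. Replicates are named biological in the series text, yet nothing in the labels ties them to separate cultures, and the spread that the p-values rest on may be technical. In bulk RNA, fewer cells of a type and less RNA per cell cannot be told apart.

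Retinol, the alcohol form of vitamin A, travels in blood bound to the carrier Rbp4, and the membrane protein Stra6 takes it from that carrier into the cell. Inside the cell retinol is oxidised to retinal and then, by Aldh1a2 and its relatives, to retinoic acid, which the binding proteins Crabp1 and Crabp2 hold or pass on to the nucleus. There the receptors Rara, Rarb and Rarg, each paired with a retinoid X receptor, sit on repeated hexamers in DNA and switch target genes on when retinoic acid binds.

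The sequence 250 bases upstream of the RefSeq start of Stra6 is shown first because Stra6 had the widest course of the 8 genes, from almost no reads at day 0 to the level of Rara. It lies at chr9:58128838-58129087 of GRCm38.p6 on the plus strand, inside the span that GENCODE gives to Stra6 but in no annotated exon, and is the upstream-most of 4 Stra6 entries in the RefSeq table.
Stra6 promoter: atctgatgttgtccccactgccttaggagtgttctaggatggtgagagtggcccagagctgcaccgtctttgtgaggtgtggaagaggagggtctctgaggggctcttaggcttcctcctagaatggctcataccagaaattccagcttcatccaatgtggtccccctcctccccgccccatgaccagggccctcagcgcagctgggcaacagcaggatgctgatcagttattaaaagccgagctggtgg
No capitals appear because none of the receptor hexamers searched for (AGGTCA as the base form, with its variants written AGTTCA, then GGGTCA, and lastly GGTTCA, on both strands) occurs in it. These letters being absent from 250 bases says nothing about binding elsewhere.

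The site upstream of Rarb is shown beside it because it holds the direct repeat with 5 bases between the hexamers for which this gene is known as a retinoic acid target. It lies at chr14:16575513-16575529 of GRCm38.p6, is read along the strand of the gene, which is the minus strand, and begins 53 bases upstream of the RefSeq start. The capitals mark the pair of hexamers.
Rarb repeat: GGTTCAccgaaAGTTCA
RefSeq upstream windows were at hand for 7 of the 8 genes, 15 windows in all, and Crabp2 had none. Among them only the window of Rarb held a direct repeat with 2 or 5 bases between the hexamers. Over all 32817 windows of this length, the repeat with 5 bases between occurred in 29 (0.0884%), the repeat with 2 bases between in 57 (0.174%), and a single hexamer in 12682 (38.6%).

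Values are normalized read counts as deposited. Fold changes are differences of log2(value + 1) from a limma fit over all 20 libraries, adjusted over 15757 genes by the Benjamini and Hochberg method with a threshold of 0.05. The table's columns summed to 15.7 M to 21.3 M, at a depth of about 12.0 M to 23.7 M reads, and replicates correlated across genes at r = 0.981 to 0.989. The control replicates of day 1 differed most, with a median absolute log2 difference of 0.252 against 0.118 to 0.162 in the other groups. Ddx10, on chromosome 9 at 53098635 to 53248053 of GRCm38, ranged from 499.9 to 921 in the control and from 255 to 530 in the knockdown. It was lower in the knockdown at each of the 5 days, with a log2 difference of -1.0 (SE 0.05, limma adjusted p = 5.85e-08) in the mean of all days. Leaving out knockdown replicate 1 of day 0 ended the Ddx10 call at that day (adjusted p = 0.0562), as did leaving out knockdown replicate 2 (0.0502) or control replicate 1 (0.0777) at day 7. With the 4 libraries of a day fitted alone, Ddx10 did not pass at day 0 (adjusted p = 0.186) or day 1 (0.523).

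**Figure D1:**
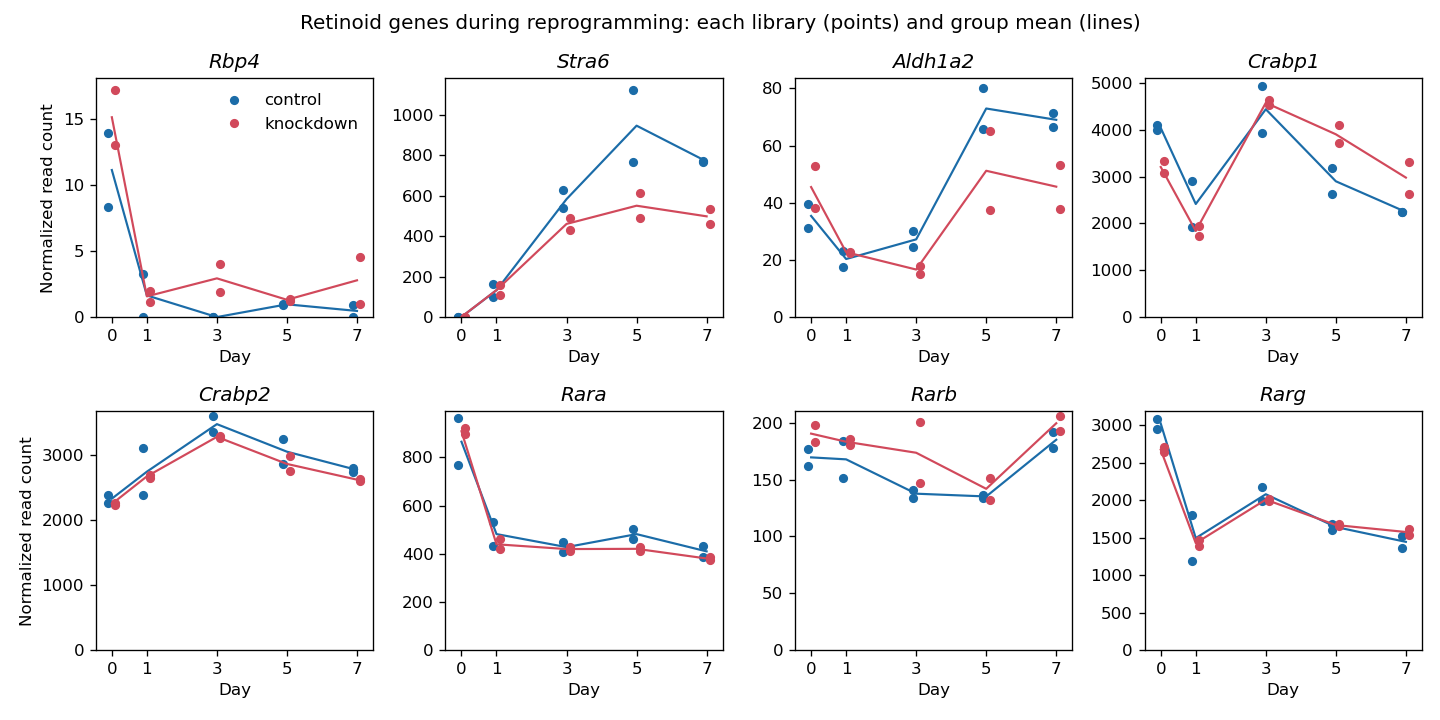
Normalized read count (vertical axis, from 0) of the 8 genes at days 0, 1, 3, 5 and 7 (horizontal axis) in the control (blue) and the knockdown (red), with 1 point per library and lines through the means of 2 libraries. Stra6 went from at most 1.26 at day 0 to between 433 and 1124 from day 3 on, while Rara and Rarg were highest at day 0.

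Rbp4, the blood carrier of retinol, lies on chromosome 19 at 38116629 to 38125281 of GRCm38 and was the least abundant of the 8 genes from day 1 on. In the control its counts were 8.34 and 13.9 at day 0, 3.28 and 0 at day 1, 0 and 0 at day 3, 0.914 and 1.02 at day 5, and 0 and 0.928 at day 7. The knockdown gave 13.1 and 17.2 at day 0, 1.96 and 1.18 at day 1, 3.98 and 1.88 at day 3, 1.2 and 1.4 at day 5, and 1.02 and 4.55 at day 7. In both arms every library of day 0 was above every later library of its arm. These values stand for few reads: about 20 and 28 at day 0 over the 2 libraries of the control and the knockdown, and 0 to 6 in any later group. Between day 0 and day 3 of the control Rbp4 was at least 7.92-fold lower, taking 3 reads over the group as the limit that a count of 0 allows and the reads of day 0 as they stand. With the counting error of both days the lower limit of the ratio was 6.12 (exact binomial, 95%).

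In the knockdown arm Rbp4 fell from day 0 to each later day, with log2 changes of -2.66, -2.08, -2.79 and -2.26 at days 1, 3, 5 and 7 (SE 0.70 each, limma adjusted p = 0.00516, 0.018, 0.00253 and 0.00992). A pseudocount of 0.1 ended all of these calls (adjusted p = 0.0873, 0.18, 0.0577 and 0.12). Without knockdown replicate 2 of day 0 the fall to day 3 had an adjusted p of 0.0938 and that to day 7 of 0.0609. Leaving out knockdown replicate 2 of day 3 gave 0.12 for day 3, and leaving out knockdown replicate 1 of day 7 gave 0.123 for day 7. Markers of macrophages, of which 6 of 7 were in the table, fell like Rbp4 in the control from day 0 to day 1. Their summed counts were 2113 to 3301 at day 0 and 194 to 218 at day 1. Later control sums were higher again, at 367 to 386 at day 3 and 396 to 448 at day 7, while control Rbp4 stayed low. At day 7 the sums were lower in the knockdown (285 to 301), while both knockdown libraries of Rbp4 were above the control. Knockdown replicate 1 and control replicate 2 of that day each held about 1 read of Rbp4, so their order rests on the scaling. The part of these markers in the Rbp4 result was not tested.

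Stra6, the retinol transporter of the plasma membrane, lies on chromosome 9 at 58063788 to 58153996 of GRCm38. At day 0 it was at 1.26 and 0 in the control and at 0.987 and 1.05 in the knockdown, about 1 read and 2 reads over the pairs of libraries. Control libraries had 166 and 99.9 at day 1, 626 and 540 at day 3, 1124 and 769 at day 5, and 772 and 765 at day 7. Knockdown libraries had 156 and 110 at day 1, 433 and 488 at day 3, 490 and 611 at day 5, and 535 and 461 at day 7. In both arms day 0 lay below day 1 and day 1 below all later days without overlap, while the libraries of days 5 and 7 overlapped.

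In the knockdown arm Stra6 rose by 6.03, 7.83, 8.08 and 7.94 on the log2(value + 1) scale from day 0 to days 1, 3, 5 and 7 (SE 0.32 each, limma adjusted p = 1.33e-09, 1.76e-11, 8.72e-12 and 9.68e-12). The arms share cells, factors, medium and days, and the control difference was known when Stra6 was picked. A rise in the knockdown arm was therefore likely beforehand, and these p-values are no independent support for it. The rise in the knockdown arm is given for its size and course. The rise passed in 15 of 15 alternatives at each day. The size of the rise is poorly fixed, since a handful of reads at day 0 sets it: the ratio of day 7 to day 0 in the knockdown was 488, with a counting interval at 95% (exact binomial, counting error only) of 130 to 3889. Over the alternatives the day 7 change ran from 6.38 to 8.79. In the control, given as a description, the log2 differences from day 0 were 6.43, 8.60, 9.27 and 9.0.

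From day 3 on, Stra6 was lower in both knockdown libraries than in both control libraries. Ratios of group means were 0.790 at day 3, 0.582 at day 5 and 0.648 at day 7. The control values of day 3 were known to lie above day 0 when Stra6 was picked. The ratio of day 3 reuses them and is no independent result. At day 1 the arms overlapped, with a ratio of 1.00. None of these differences passed the test: the log2 difference was -0.76 (SE 0.32, 95% interval -1.45 to -0.08, limma adjusted p = 0.171) at day 5 and -0.63 (SE 0.32, 95% interval -1.31 to 0.05, adjusted p = 0.322) at day 7. With a pseudocount of 5 in place of 1, day 5 gave an adjusted p of 0.049, and with the 4 libraries of day 7 fitted alone that day gave 0.00554. The mean of all days gave -0.26 (adjusted p = 0.252), 0.0428 with the pseudocount of 5, and 0.0354 without control replicate 2 of day 0, in which Stra6 was at 0. Over all alternatives the adjusted p ranged from 0.049 to 0.67 at day 5, from 0.00554 to 0.795 at day 7 and from 0.0354 to 0.979 for the mean of all days.

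Markers of epithelial cells, 6 of 6 in the table, were lower in the knockdown at days 3, 5 and 7, as the Stra6 libraries were. They were also lower at day 1, where Stra6 overlapped, with sums of 650 to 701 against 716 to 752 in the control. Their summed counts were 4830 to 5031 in the control and 2639 to 2700 in the knockdown at day 3, 17210 to 18443 and 8032 to 8349 at day 5, and 19466 to 21110 and 11201 to 11965 at day 7. Markers of trophoblast, 4 of 6 in the table, were also lower in the knockdown at days 3, 5 and 7, and overlapped at day 1. At day 7 their sums were 379 to 428 against 559 to 779 in the control. They were lower in the knockdown at day 0 too (290 to 297 against 342 to 355). The part of either set of markers in the Stra6 difference was not tested. The 3 genes whose group means followed those of Stra6 most closely across the 10 groups were Lpar2 (Pearson r = 0.998), Galnt12 (0.997) and Grhl3 (0.996), out of 12071 genes searched. The 10 points share the course of the cultures, so such values describe only a likeness of pattern.

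Aldh1a2, the retinal dehydrogenase that makes most retinoic acid in the early embryo, lies on chromosome 9 at 71215789 to 71296243 of GRCm38. Counts in the control were 39.5 and 31.3 at day 0, 23.3 and 17.4 at day 1, 30.0 and 24.3 at day 3, 80.3 and 65.7 at day 5, and 66.5 and 71.5 at day 7. Counts in the knockdown were 38.2 and 52.8 at day 0, 22.9 and 22.5 at day 1, 15.2 and 18.0 at day 3, 37.3 and 65.0 at day 5, and 53.3 and 38.0 at day 7. In both arms days 1 and 3 lay below day 0 without overlap. Control libraries of days 5 and 7 lay above those of day 0, whereas the knockdown libraries of these days overlapped day 0.

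The knockdown arm fell at day 1 (log2 change -0.95, SE 0.30, limma adjusted p = 0.0143) and at day 3 (-1.39, SE 0.30, adjusted p = 0.000849). Its changes to day 5 (0.13, adjusted p = 0.714) and day 7 (0.00, adjusted p = 0.995) did not pass. The day 1 fall lost its call without knockdown replicate 2 of day 0 (adjusted p = 0.127) or without knockdown replicate 1 (0.0507) or replicate 2 (0.0582) of day 1. Quantile scaling turned the day 7 value to -0.81 (adjusted p = 0.0286) and, in the control, brought the untested differences from day 0 from 1.03 to 0.28 at day 5 and from 0.95 to 0.11 at day 7. The later course of this gene therefore depends on the scaling.

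Aldh1a2 and Stra6 were the 2 genes of the 8 whose knockdown libraries were both below both control libraries at each of days 3, 5 and 7, which held for 6.84% of all genes. Rbp4 did not overlap at these days either, but with the knockdown higher. At days 5 and 7 the closest Rbp4 libraries of the arms held about 1 read each, so that order rests on the scaling. The pattern shared by Aldh1a2 and Stra6 was not among the planned comparisons, so the share is a description and no test. For Stra6 the pattern also reuses the control values of day 3, which were known when the gene was picked. For Aldh1a2 the ratios of group means were 0.612, 0.701 and 0.661, and the log2 differences were -0.67 (adjusted p = 0.225), -0.55 (0.305) and -0.61 (0.299), each with an SE of 0.30 and none past the limma threshold. The arms differed by -1.02 (SE 0.42, adjusted p = 0.19) in the change from day 0 to day 3 and by -0.95 (SE 0.42, adjusted p = 0.197) in that to day 7. Nearest in pattern were Hip1 (r = 0.951), Zfp383 (0.947) and Aldh3b1 (0.946) over the 10 groups.

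Crabp1, a binding protein of the cytosol often linked to the breakdown of retinoic acid, lies on chromosome 9 at 54764748 to 54773110 of GRCm38 and had the highest level per kilobase of the 8 genes in every group. In the control it was at 4093 and 3989 at day 0, 2913 and 1918 at day 1, 4939 and 3942 at day 3, 2624 and 3178 at day 5, and 2237 and 2254 at day 7. In the knockdown it was at 3072 and 3341 at day 0, 1944 and 1735 at day 1, 4527 and 4627 at day 3, 3708 and 4101 at day 5, and 2636 and 3323 at day 7. Group means were highest at day 3 in both arms, and lowest at day 7 in the control and at day 1 in the knockdown. Both knockdown libraries were below both control libraries at day 0 and above them at days 5 and 7.

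From day 0 the knockdown arm fell by 0.80 on the log2 scale at day 1 (SE 0.17, limma adjusted p = 0.00101), rose by 0.51 at day 3 (SE 0.17, adjusted p = 0.0148), and did not pass at day 5 (0.28) or day 7 (-0.11). The rise at day 3 lost its call without knockdown replicate 1 of day 0 (adjusted p = 0.085) or knockdown replicate 2 of day 3 (0.0639). Day 5 passed with quantile scaling (0.50, adjusted p = 0.0193) and with its 4 libraries alone (0.0179), and quantile scaling turned the day 7 value to 0.11. In the control the untested differences from day 0 were -0.77, 0.13, -0.48 and -0.85, of which the last 3 were 0.37, -0.21 and -0.55 with quantile scaling.

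Between the arms Crabp1 differed by -0.33 at day 0, -0.36 at day 1, 0.05 at day 3, 0.43 at day 5 (SE 0.17, adjusted p = 0.131) and 0.40 at day 7 (adjusted p = 0.204), with ratios of group means from 0.761 at day 1 to 1.35 at day 5. The difference between arms in the change from day 0 to day 7 was 0.73 (SE 0.23, 95% interval 0.23 to 1.23, limma adjusted p = 0.0799). That value missed the threshold in the design used, but passed with weighted libraries (adjusted p = 0.0359) and with only the 8 libraries it compares (0.0246). Over 19 alternatives its adjusted p ranged from 0.0246 to 0.279. The day 5 difference passed with weights (0.0414) and with its 4 libraries alone (0.0377), the day 7 difference with weights (0.0417), and the day 1 difference without control replicate 2 of day 1 (-0.67, adjusted p = 0.0254).

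Crabp2, the binding protein that carries retinoic acid to the nuclear receptors, lies on chromosome 3 at 87948666 to 87953376 of GRCm38. Control counts were 2268 and 2390 at day 0, 3102 and 2387 at day 1, 3603 and 3349 at day 3, 2859 and 3245 at day 5, and 2747 and 2794 at day 7. Knockdown counts were 2264 and 2232 at day 0, 2698 and 2647 at day 1, 3261 and 3300 at day 3, 2748 and 2979 at day 5, and 2608 and 2635 at day 7. Group means were highest at day 3 in both arms, and day 7 lay above day 0 without overlap. The arms overlapped at days 1 and 5, and the knockdown lay below the control at days 0, 3 and 7.

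Crabp2 rose in the knockdown arm by 0.25 at day 1 (SE 0.10, limma adjusted p = 0.0424), 0.54 at day 3 (0.000156) and 0.35 at day 5 (0.00514), and the 0.22 at day 7 did not pass (0.0535). That day passed with quantile scaling (0.39, adjusted p = 0.00179), with weighted libraries (0.0129) and with its 4 libraries alone (0.0107). The rise at day 1 lost its call without any of the 4 libraries it compares (adjusted p = 0.102 to 0.137), namely both knockdown replicates of days 0 and 1, and the rise at day 5 without knockdown replicate 2 of day 5 (0.0512). Control differences from day 0 were 0.22, 0.58, 0.39 and 0.25. In the mean of all days the arms differed by -0.07 (SE 0.04, 95% interval -0.16 to 0.03, adjusted p = 0.333), or by -0.10 (adjusted p = 0.0261) without control replicate 2 of day 1. The ratio of Crabp1 to Crabp2 per kilobase was 2.86 ± 0.16 (SD, n = 2) at day 0 and 1.34 ± 0.01 at day 7 in the control, and 2.35 ± 0.16 and 1.87 ± 0.29 in the knockdown.

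Rara, the most widely expressed of the retinoic acid receptors, lies on chromosome 11 at 98927818 to 98974942 of GRCm38. It was at 961 and 768 in the control and 921 and 896 in the knockdown at day 0. Later control libraries had 530 and 433 at day 1, 405 and 449 at day 3, 461 and 501 at day 5, and 387 and 432 at day 7. Later knockdown libraries had 460 and 418, 412 and 426, 427 and 413, and 375 and 385 at the same days. Day 0 stood above every later day in both arms without overlap.

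The receptor fell in the knockdown arm, with log2 changes of -1.05, -1.11, -1.11 and -1.25 at days 1, 3, 5 and 7 (SE 0.12 each, limma adjusted p = 2.88e-06, 7.83e-07, 6.61e-07 and 1.43e-07), in 15 of 15 alternatives at each day. The control differences were -0.84, -1.01, -0.84 and -1.07. In the mean of all days the arms differed by -0.07 (SE 0.05, 95% interval -0.19 to 0.04, adjusted p = 0.378). Stx2 (r = 0.992), Dnajb11 (0.991) and Dnajb4 (0.987) were nearest to Rara in pattern.

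Rarg, the receptor of skin, cartilage and other mesenchyme, lies on chromosome 15 at 102234938 to 102257517 of GRCm38 and was the most abundant receptor of the 3. Control counts were 2953 and 3086 at day 0, 1802 and 1183 at day 1, 1986 and 2169 at day 3, 1606 and 1674 at day 5, and 1363 and 1521 at day 7. Knockdown counts were 2635 and 2708, 1461 and 1390, 1990 and 2020, 1686 and 1648, and 1534 and 1614 at those days. Day 0 lay above every later day in both arms, and day 3 lay above day 1.

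In the knockdown arm Rarg fell from day 0, with log2 changes of -0.91, -0.41, -0.68 and -0.76 at days 1, 3, 5 and 7 (SE 0.13 each, limma adjusted p = 3.13e-05, 0.012, 0.000267 and 8.44e-05). The fall at day 3 lost its call with quantile scaling (adjusted p = 0.0608), without knockdown replicate 2 of day 0 (0.0586) and without knockdown replicate 1 of day 3 (0.0537). The control differences were -1.05, -0.54, -0.88 and -1.07. The arms differed by -0.02 (SE 0.06, 95% interval -0.15 to 0.10, adjusted p = 0.841) in the mean of all days, and at day 1 by -0.04, or by -0.34 (adjusted p = 0.0321) without control replicate 2 of that day. Markers of fibroblasts, 8 of 8 in the table, had lower summed counts at day 7 than at day 0, as Rara and Rarg had. In the knockdown the sums were 311218 to 324029 at day 0 and 87412 to 102157 at day 7, with 6 of 8 called lower and 2 higher. In the control they were 382090 to 391375 and 87889 to 89988. Between these days the courses differed. The knockdown sums were 196366 to 196381 at day 1 and 130201 to 139857 at day 3, while Rarg was higher at day 3 than at day 1. Rara changed little there from day 1 to day 5. At day 0 the sums were lower in the knockdown, as the Rarg libraries were, while Rara overlapped. The part of these markers in the falls of both receptors was not tested. Plod1 (r = 0.986), Foxk1 (0.983) and B3gat3 (0.983) were nearest in pattern.

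Rarb, the receptor that is itself a target of retinoic acid and whose repeat is printed above, lies on chromosome 14 at 16430839 to 16819156 of GRCm38. Its exons share 1793 bases with those of Top2b, a DNA topoisomerase on the opposite strand that had 2981 to 5487 counts, and 227 bases with an antisense gene. Since the strand setting of the counting is not given in the sources used here, reads of Rarb and of these partners cannot be told apart in the shared stretch. Control counts were 162 and 177, 151 and 184, 141 and 134, 136 and 134, and 192 and 178 at days 0, 1, 3, 5 and 7. Knockdown counts were 183 and 198, 186 and 180, 200.2 and 147, 132 and 152, and 193 and 206. All libraries thus lay between 132 and 206, with the lowest group mean at day 5 in both arms.

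In the knockdown arm Rarb fell by 0.42 from day 0 to day 5 (SE 0.15, limma adjusted p = 0.0242) and did not pass at day 1 (-0.05), day 3 (-0.15) or day 7 (0.07). The fall lost its call without knockdown replicate 2 of day 0 (adjusted p = 0.12) or knockdown replicate 1 of day 5 (0.162). The untested control differences were -0.02, -0.30, -0.32 and 0.13, the last of which was -0.26 with quantile scaling. Between the arms Rarb differed by 0.16 (SE 0.07, 95% interval 0.01 to 0.30, adjusted p = 0.13) in the mean of all days and by 0.20 (adjusted p = 0.0481) without knockdown replicate 2 of day 3.

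**Figure D2:**
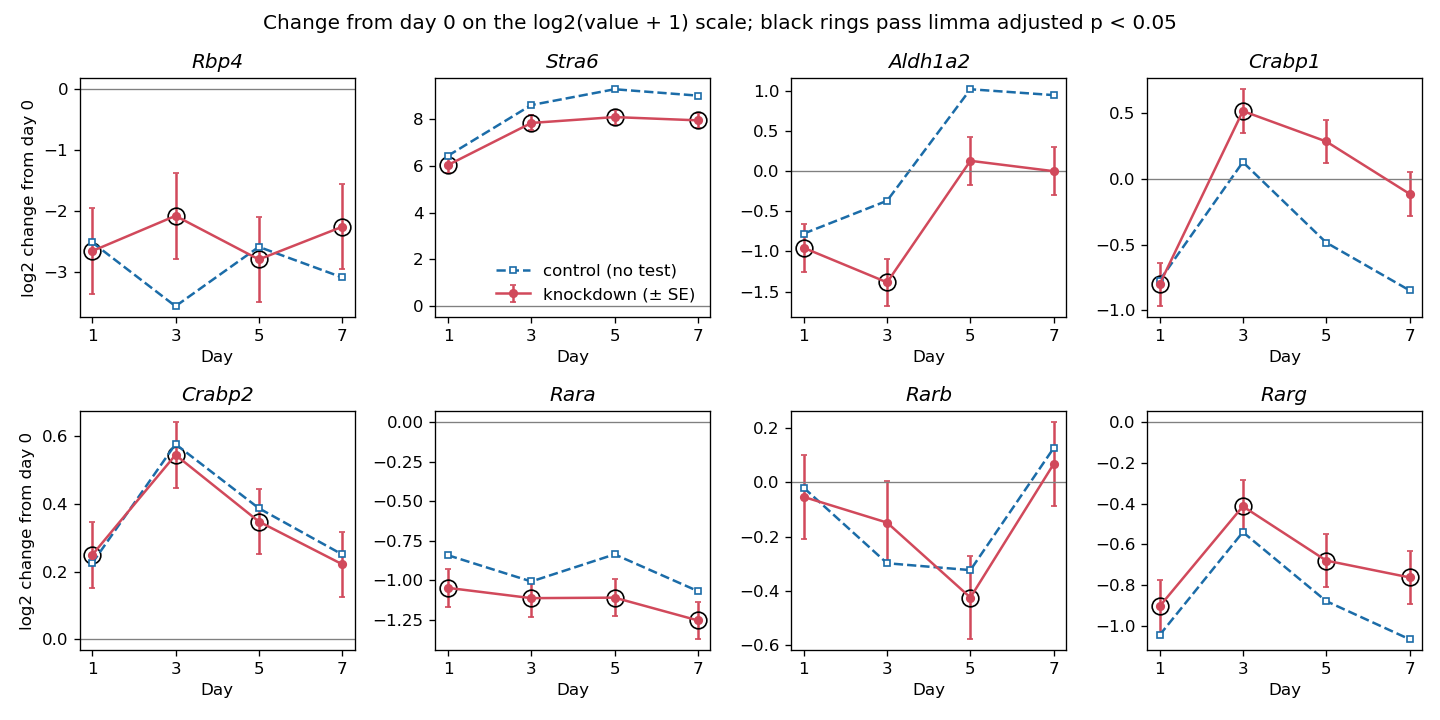
Change from day 0 on the log2(value + 1) scale (vertical axis, own range per gene) at days 1, 3, 5 and 7 for the 8 genes, with the knockdown as red points ± SE, black rings where limma's adjusted p was under 0.05, and the control as untested blue squares. Stra6 lies above 6 and Rara below -0.8 at every day in both arms.

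Of the 8 genes, 7 passed the test in the knockdown arm from day 0 to day 1 (2 higher and 5 lower) against 50.1% of all genes (25.5% higher and 24.6% lower), and 7 from day 0 to day 3 (3 higher and 4 lower) against 60% (31.9% and 28.1%). At day 5, 6 passed (2 higher and 4 lower) against 64.2% (34.3% and 29.9%), and at day 7, 4 passed (1 higher and 3 lower) against 67.1% (36.2% and 30.9%). Whether these shares differ was not tested. The median change of the 8 genes from day 0 was -0.85, -0.28, -0.15 and -0.06 at days 1, 3, 5 and 7, beside medians of 0.00, 0.05, 0.07 and 0.08 over all genes. Quantile scaling moved that median over all genes at days 3, 5 and 7 to -0.07, -0.09 and -0.09.

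Between the arms, none of the 8 genes passed limma's test at any single day or in the mean of all days. The shares of all genes that passed were 3.31% at day 0, 0.146% at day 1, 4.77% at day 3, 8.73% at day 5, 6.17% at day 7 and 17.8% in the mean of all days. At an unadjusted p under 0.05 there were 0, 1 (Crabp1), 2 (Rbp4 and Aldh1a2), 2 (Stra6 and Crabp1) and 1 (Crabp1) of the 8 at days 0, 1, 3, 5 and 7, and 2 (Rbp4 and Rarb) in the mean of all days. Rbp4 had the highest value there, 0.83 (SE 0.31, 95% interval 0.16 to 1.5, adjusted p = 0.082), and 1.04 (adjusted p = 0.0197) without control replicate 1 of day 1. Over its alternatives the value ran from 0.31 with a pseudocount of 5 to 2.00 with 0.1, and the adjusted p from 0.0197 to 0.176. Markers of adipocytes, 4 of 6 in the table, were also higher in the knockdown at every day, at 1294 to 1328 against 1054 to 1150 at day 0 and 877 to 953 against 643 to 683 at day 7. Lpl, a lipase, made up 57.1% to 96.2% of these sums. Without it, the other 3 markers overlapped between the arms at days 0 and 1 (395 to 467 in the knockdown against 429 to 452 at day 0) and were higher in the knockdown at days 3, 5 and 7 (57.8 to 82.1 against 39.7 to 45.5 at day 7). Their part in the Rbp4 values was not tested. In the test of the difference between arms, 0 of 8 passed for the change to day 3 and 0 for that to day 7 (3.73% and 6.38% of all genes). At an unadjusted p under 0.05 there were 1 (Aldh1a2) and 3 (Stra6, Crabp1 and Aldh1a2). The Stra6 value to day 7 was -1.06 (SE 0.45, limma adjusted p = 0.183) and ran from -2.23 to -0.47 over the alternatives. It rests on about 1 read in the control and 2 in the knockdown at day 0. The control values of day 0 were also among those known when Stra6 was picked.

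Replicates of the arms did not overlap for 4 of the 8 genes at day 0, 0 at day 1, 5 at day 3, 5 at day 5 and 8 at day 7, against 50.3%, 34.7%, 53.4%, 56.5% and 56.2% of all genes. At day 7 the knockdown was lower for Stra6, Aldh1a2, Crabp2 and Rara and higher for Rbp4, Crabp1, Rarb and Rarg. For Rbp4 the closest libraries of the arms at days 5 and 7 held about 1 read each.

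**Figure D3:**
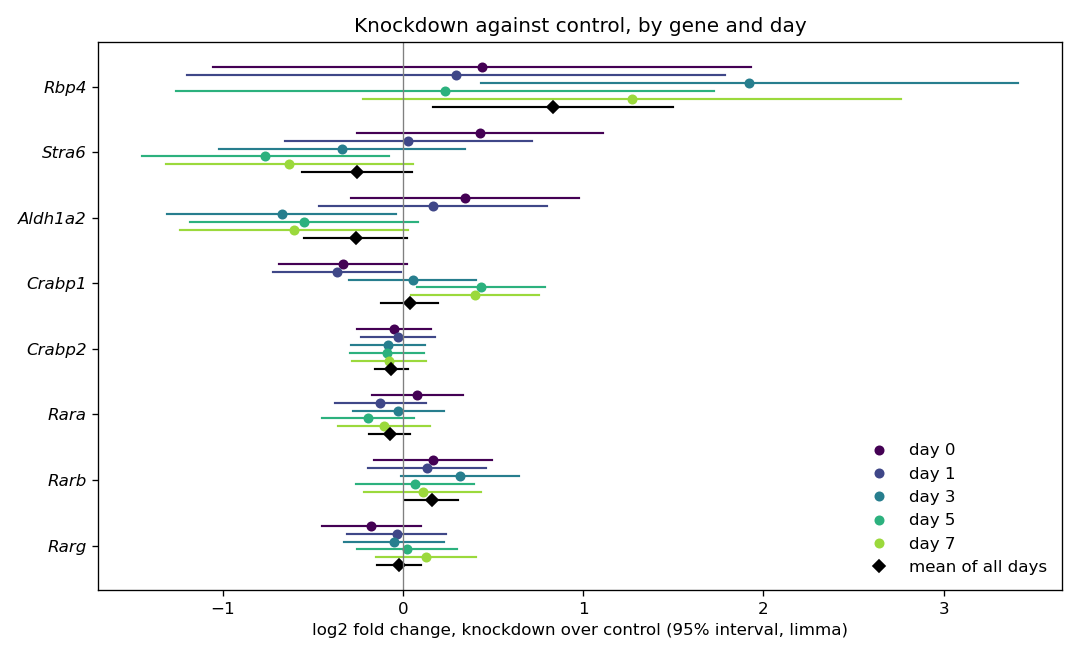
Log2 difference between knockdown and control (horizontal axis) with its 95% interval from limma for each of the 8 genes (rows), at each of 5 days (coloured points) and in the mean of all days (black diamonds). The intervals of Rbp4 are the widest, those of Crabp2 among the narrowest, and the values of Stra6 and Aldh1a2 lie below 0 at days 3, 5 and 7.

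Divided by the length of its exons, the level of Crabp1 was above that of Crabp2, and Crabp2 above Rarg, in each of the 10 groups. Stra6 was the lowest of the 8 at day 0, at 0.108 ± 0.153 (SD, n = 2) counts per kilobase in the control. At day 5 it ranked 4 of 8 in the control, at 162 ± 43.1 per kilobase, above the 110 ± 6.52 of Rara. In the knockdown it ranked 5 of 8, at 94.4 ± 14.7, with Rara one place above it and within its SD. Rarg made up 75.5% ± 2.93 of the summed receptor level per kilobase at day 0 of the control and 72.4% ± 0.71 at day 7, with 72.0% ± 0.56 and 74.7% ± 0.16 in the knockdown. Rarb, with the limit from Top2b, went from 3.43% ± 0.25 to 7.55% ± 0.91 of that sum in the control and from 4.15% ± 0.19 to 7.66% ± 0.10 in the knockdown. The sum itself was 939 ± 7.03 counts per kilobase at day 0 and 467 ± 31.6 at day 7 in the control, and 871 ± 10.1 and 494 ± 16.8 in the knockdown. Over the 10 groups the genes nearest in pattern to the other members were Osbp for Rbp4 (r = 0.970), Triobp for Crabp1 (0.909), Zfp710 for Crabp2 (0.965) and Bod1l for Rarb (0.905).

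The wider pathway was read from 7 lists of 65 genes, of which 53 were in the table. In the mean of all days 7 of the 53 were higher and 4 lower in the knockdown, with a median log2 difference of 0.02, beside 17.8% of all genes called and a median of 0.00. From day 0 to day 7 of the knockdown arm 24 were higher and 11 lower, with a median of 0.30, beside 67.1% and 0.08 over all genes. Of the 4 genes of retinol transport and storage in the table, 1 was higher and 1 lower in the knockdown in the mean of all days. Lpl, a lipase that frees fats from lipoproteins for uptake, was higher by 0.47 (SE 0.04, limma adjusted p = 3.20e-06), and Lipe, the hormone-sensitive lipase that splits stored esters, was lower (-0.24, SE 0.06, adjusted p = 0.0114).

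**Figure D4:**
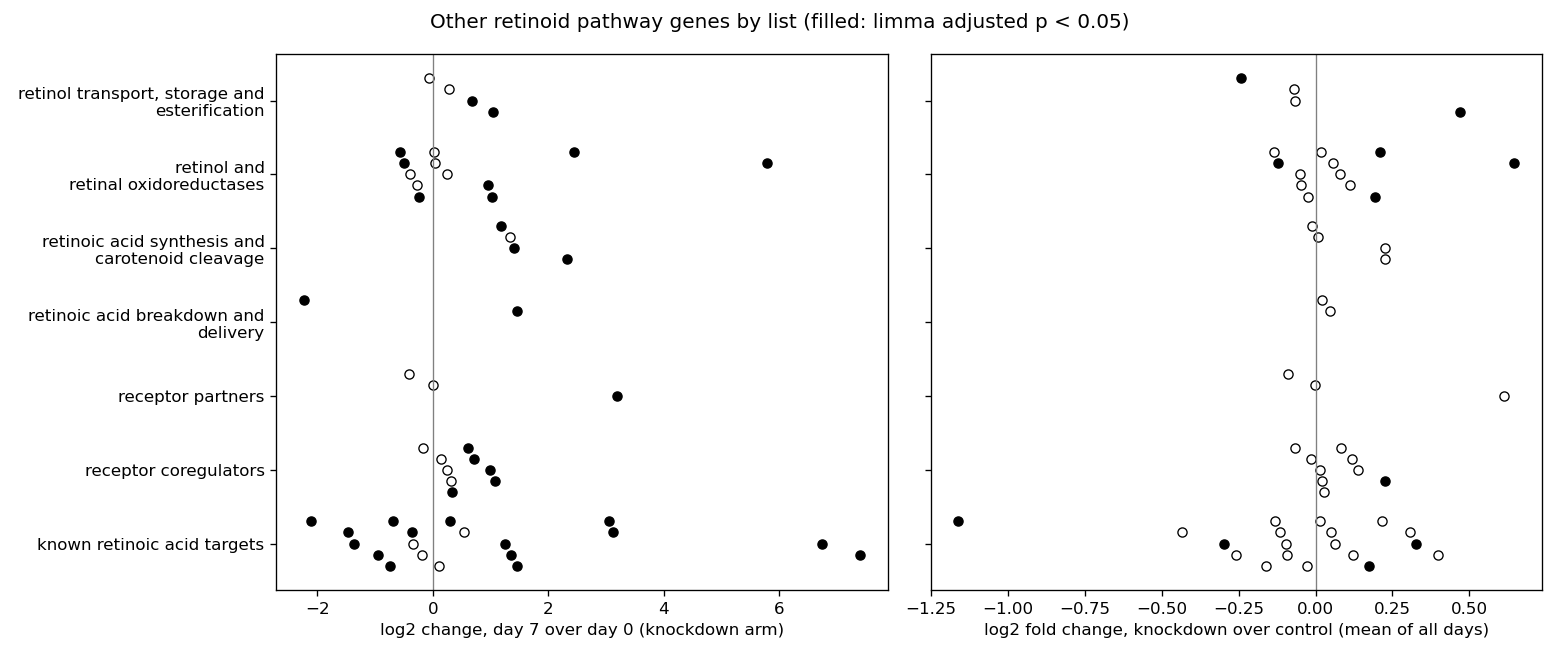
Log2 change from day 0 to day 7 in the knockdown arm (left) and log2 difference between knockdown and control in the mean of all days (right) for 53 other genes of the retinoid pathway, in 7 lists (rows), with 1 point per gene, filled where limma's adjusted p was under 0.05. The changes over time on the left reach 7.40 (Gbx2), while the differences between arms on the right lie between -0.44 (Cdx1) and 0.65 (Dhrs9), apart from Gbx2 at -1.16.

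Among 12 oxidoreductases of retinol and retinal in the table, 3 were higher and 1 lower in the knockdown in the mean of all days, beside 17.8% of all genes called. From day 0 to day 7 of the knockdown arm 4 were higher and 3 lower, beside 36.2% and 30.9% of all genes. Rdh10, the main retinol dehydrogenase of the embryo, was at 594 and 482 in the control and 616 and 648 in the knockdown at day 0, and at 997 and 1076 against 1324 and 1244 at day 7. It rose by 1.02 (limma adjusted p = 1.27e-07) from day 0 to day 7 in the knockdown arm and was higher than the control by 0.21 (SE 0.04, adjusted p = 0.00332) in the mean of all days. Dhrs9, a related dehydrogenase, was higher by 0.65 (SE 0.08, adjusted p = 6.35e-05). Adh7, an alcohol dehydrogenase of epithelia that acts on retinol, rose in the knockdown arm from 59.9 and 57.2 at day 0 to 3214 and 3388 at day 7 (5.79, adjusted p = 2.23e-16), with control values of 51.3 and 54.8 at day 0 and 3384 and 3241 at day 7.

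Over all genes, 36.2% were higher and 30.9% lower from day 0 to day 7 in the knockdown arm, the background for the list counts that follow. The list headed retinoic acid synthesis and carotenoid cleavage had 4 genes in the table. Being on it does not show that a gene makes retinoic acid. Of the 4, 3 rose in that arm to day 7. Among them were Aldh1a3 (2.33, limma adjusted p = 7.84e-07) and Aldh1a7 (1.18, adjusted p = 0.000812, but 0.127 with quantile scaling). Between the arms 0 of 4 passed by limma. Cyp26b1, which inactivates retinoic acid, rose by 1.47 (adjusted p = 2.47e-08), and Fabp5, which hands retinoic acid to a receptor of the PPAR family, fell by 2.23 (adjusted p = 2.40e-11). Of 9 coregulators, 5 rose and 0 fell in that arm. Ncoa1, a coactivator, rose by 1.08 (adjusted p = 4.49e-07) and was higher than the control by 0.23 (SE 0.05, adjusted p = 0.00563) in the mean of all days. Among 3 retinoid X receptors Rxrg passed (3.195, adjusted p = 0.00282, but 0.0901 with quantile scaling), at no more than 13.6 counts in any library. Rxrb, at -0.42, did not pass, but did with weighted libraries (adjusted p = 0.00974) and with its 4 libraries alone (0.00483).

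Of the 19 known retinoic acid targets in the table, 8 were higher and 7 lower from day 0 to day 7 in the knockdown arm, beside 36.2% and 30.9% of all genes. Between the arms 2 were higher and 2 lower in the mean of all days, beside 17.8% of all genes called. Tgm2, a transglutaminase, fell by 2.11 (adjusted p = 6.25e-11) and was lower than the control by a log2 difference of -0.30 (SE 0.05, adjusted p = 0.000457). Gbx2, a homeobox gene of brain patterning, was lower than the control (-1.16, SE 0.15, adjusted p = 8.55e-05) in the mean of all days, but not at every day. Its ratios of group means were 0.335, 0.406, 0.707 and 1.28 at days 1, 3, 5 and 7, so the knockdown was higher at day 7. The largest part came from day 0 (-3.03), with 0 in the knockdown against a mean of 7.28 counts. The size of that difference rests on the pseudocount. Cdx1, a homeobox gene of the posterior body, was listed at 0 in all libraries of days 0 and 1 and at 105 and 108 in the knockdown at day 7, at least 66.6-fold higher than at day 0. Rai14, named for its induction by retinoic acid, was higher in the knockdown by 0.17 (SE 0.03, adjusted p = 0.000324).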

How the data were processed

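RNA of 20 libraries was sequenced in paired ends, per the labels' protocols. The signal values are normalized read counts per gene, as deposited by the authors in 1 table of 15757 genes. The mm10 genome is listed with DESeq2 1.22.0, RSEM 1.2.22, STAR 2.5.2a and Trim Galore 0.4.4, per the submitters' processing notes, without a role or order. The annotation, scaling and filter are not given in the sources used here. Between 42.2 and 63.4% of values up to 20 steps lay within 0.1 of whole steps, so reads were only estimated. Symbols were restored for 24 genes, and 15665 identifiers were in GENCODE M21.

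Values were taken as log2(value + 1). A filter of at least 1 in 2 libraries removed 0 genes. All libraries entered 1 fit in limma 3.58.1 (R 4.3.3) with 10 group means, trend and robust settings, 10 residual and a median of 5.35 prior degrees of freedom, and Benjamini-Hochberg adjustment over 15757 genes. The comparisons were knockdown against control (by day and in the mean of days), day 0 against every later day within the knockdown, and the interaction of arm and time. The fit was tested on simulated data. Members and lists were chosen with earlier results of these data known. Pathway genes named are the 2 of each list with the smallest p in the mean of days and the 6 with the smallest p at day 7 of the knockdown arm. Likeness of pattern was Pearson's r of group means over genes with a mean of at least 50. Motifs were sought in RefSeq windows with Python 3.11.15. Alternatives were quantile and median-of-ratios scaling, pseudocounts of 0.1 and 5, other filters, replicate blocks, no trend, library weights, the compared libraries alone and leaving out each library.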

Additional observations from a re-analysis of the deposited data

Results flagged for a closer look

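The interaction test was read for Ddx10 and the 8 genes to days 3 and 7, and for the named pathway genes to day 7. Within that scope, the change over time differed between the arms by limma's interaction test in 3 results. Changes of the pathway genes to day 3 were not searched. The change of Ddx10 itself from day 0 to day 3 was lower in the knockdown than in the control by a log2 difference of -0.62 (SE 0.16, adjusted p = 0.0484). That call was lost with no trend or robust setting (adjusted p = 0.0811), with the 8 compared libraries alone (0.0604) and without any 1 of those 8 libraries, both replicates of both arms at days 0 and 3 (0.0714 to 0.197). Cyp26b1, the enzyme that breaks down retinoic acid, was at 334 and 333 in the control and at 253 and 265 in the knockdown at day 0, and at 550.5 and 561 against 633 and 811 at day 7. Its change from day 0 to day 7 was higher in the knockdown by 0.73 (SE 0.17, adjusted p = 0.02). It lost its call without control replicate 1 of day 0 (adjusted p = 0.053), control replicate 1 (0.0751) or replicate 2 (0.0528) of day 7, knockdown replicate 1 of day 0 (0.0753) or knockdown replicate 2 of day 7 (0.108). Gbx2, a homeobox gene, was at 5.99 and 8.57 in the control and at 0 and 0 in the knockdown at day 0, and at 118 and 143 against 176 and 159 at day 7. Its change from day 0 to day 7 was higher in the knockdown by 3.39 (SE 0.47, adjusted p = 0.00113), a value that depends on the pseudocount because the knockdown was at 0 at day 0: it was 1.64 with a pseudocount of 5 and 6.55 with 0.1.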

How the results depend on the processing

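For the 8 genes, 828 of 840 alternative values of knockdown against control, 445 of 480 of the knockdown course and 300 of 304 of the difference between arms kept direction and side of the threshold, or passed in neither fit. The others were 12, 5 and 4 that newly passed, 29 of the course that no longer did, and 1 that reversed, Aldh1a2 at day 7 of the knockdown (-0.81, quantile scaling). Rai14 in that comparison turned to 0.0334 with quantile scaling. The causes were not tested, except that leaving out libraries leaves fewer samples.

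Counts of all genes passing between the arms moved more. At day 0 the 521 genes were 304 with quantile scaling, 296 with no trend or robust setting, 2 with the compared libraries alone, and 100 to 530 without a library. At day 1 the 23 were 13 with quantile scaling, 40 and 14 with pseudocounts of 0.1 and 5, 12 with the replicate block, 8 with no trend, 1 with weights, 0 with the compared libraries alone (748 at an unadjusted p under 0.05 in limma), and 18 to 743 without a library, the most without control replicate 2. At day 3 the 751 were 1390 with weights and 74 to 296 without a library. At day 5 the 1376 were 2188 with weights and 459 to 974 without a library. At day 7 the 972 were 2127 with weights, 1725 with the compared libraries alone and 286 to 553 without a library. For the difference between arms, the 587 to day 3 were 384 with quantile scaling, 364 with the replicate block nested in day, 220 with no trend, 357 with the compared libraries alone and 35 to 506 without a library, and the 1005 to day 7 were 283 to 929 without a library. Same-numbered replicates did not vary together across genes (correlations of -0.07 to 0.08 over 45 pairs of groups), so the main fit did not pair them. Such correlations cannot tell whether same-numbered libraries came from 1 culture or batch, which the labels do not say. A replicate block ended the Crabp2 call at day 1 of the knockdown arm (adjusted p = 0.0519) and that of Ddx10 for the difference between arms to day 3 (0.0586). Nested in day, the block also ended the latter (0.0509) and, in the knockdown arm, the calls of Aldh1a2 at day 1 (-0.82, adjusted p = 0.147), Rbp4 at days 1 and 3 (-1.76, 0.0908 and -1.62, 0.0998), Rarb at day 5 (0.091) and Dhrs9 at day 7 (0.0614), while Rxrb at day 7 (0.0492) and the difference between arms of Crabp1 to day 7 (0.0389) passed. Rbp4, with few reads in every group, and Stra6, with few at day 0, are limited by depth.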
